A study of Mus musculus with 10 samples.

Results

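The hair bundle and hereditary deafness genes are 42 genes, of 18725 in the deposited table, whose products build the mechanosensory bundle of hair cells or which cause inherited hearing loss in humans or mice when mutated. They were chosen by gene symbol, with earlier results of these data known, and the table held all 42. RNA was sequenced from 10 libraries of C57BL/6J mice at postnatal day 10, to ask how thyroid hormone acts on the developing outer sulcus of the cochlea. The 5 hypothyroid libraries came from offspring of dams that drank water with 0.05% methimazole, which blocks hormone synthesis, 1.0% sodium perchlorate monohydrate, which blocks iodide uptake by the thyroid, and 5.0% sucrose. The 5 euthyroid libraries came from offspring of dams given vehicle. In both groups the dams were treated from embryonic day 17, through lactation, until postnatal day 10. The agents reached the offspring through the dam, and neither the litters nor hormone levels are given in the sources used here. The outer sulcus, an epithelium of the lateral wall of the cochlear duct that holds the root cells, was dissected together with the spiral ligament below it. The extraction text names femoral head cartilage at postnatal day 22, whereas all other labels name the cochlea at day 10. Otor, a secreted protein of the inner ear, averaged 6060 CPM (read counts relative to library size) in hypothyroid and 5479 CPM in euthyroid libraries. The cartilage marker Col2a1 was more abundant still, at 12485 CPM in hypothyroid and 32367 CPM in euthyroid libraries. The source of the tissue was not tested.

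A hair bundle is a staircase of stereocilia, membrane protrusions packed with actin, on top of each sensory hair cell. Tip links of cadherin 23 and protocadherin 15 join neighbouring stereocilia and pull on a channel complex that holds TMC proteins, TMIE, LHFPL5 and CIB2. The Usher proteins and unconventional myosins anchor these links and carry cargo to the stereocilia tips, while actin bundlers and formins shape the core. The outer sulcus and spiral ligament bear no hair cells, but lie in the same cochlear duct, and several of these genes, such as those of gamma actin and the nonmuscle myosins, act in most cell types. Thyroid hormone is needed for the cochlea to mature before hearing begins.

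Library totals ran from 19298145 to 19407592 counts in hypothyroid and from 19781921 to 20063961 counts in euthyroid libraries. Levels below are CPM over library sizes adjusted with TMM factors, which correct for differences in composition, as mean ± SD (n = 5 libraries per group). The test is edgeR's quasi-likelihood test with p-values adjusted by Benjamini-Hochberg over 14862 genes, called at 0.05, and a fold change is log2 of hypothyroid over euthyroid with its standard error (SE). The series had broad differences, and the background for any count is therefore high: 71.8% of all genes tested were called, 37.7% higher and 34.1% lower in hypothyroid libraries. Scaling moved this balance: over all genes the log2 fold change had a median of 0.04 with TMM factors and of 0.30 with library sizes alone, where 58.2% were higher and 19.7% lower.

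Of the 42 members, 39 had enough counts to be tested. In hypothyroid libraries 10 were higher, 24 were lower and 5 did not pass the test (Clrn1, Tprn, Triobp, Slc17a8 and Serpinb6a). The members' median log2 fold change was -0.30, against 0.04 over all genes tested. With library sizes alone the split was 15 higher and 16 lower. With upper quartile factors, under which 46.5% of all genes were higher and 27.9% lower, it was 12 higher and 22 lower, and on the authors' TPM values, with 35 members tested, it was 14 higher and 13 lower, where limma on log2(TPM + 0.1) called 54.4% of all genes higher and 22% lower. Changes of at least 2-fold were called for 10 lower and 3 higher members. These are 25.6% and 7.69% of those tested, where 7.91% and 9.25% of all genes were so called. Since the members were chosen with earlier results of these data known, these shares are no independent evidence. In 29 members (74.4% of those tested) the groups did not overlap in CPM, 21 with all hypothyroid libraries below and 8 with all above. Of all genes tested, 57.9% had groups that did not overlap, 28.5% with hypothyroid libraries below and 29.4% with them above.

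**Figure D1:**
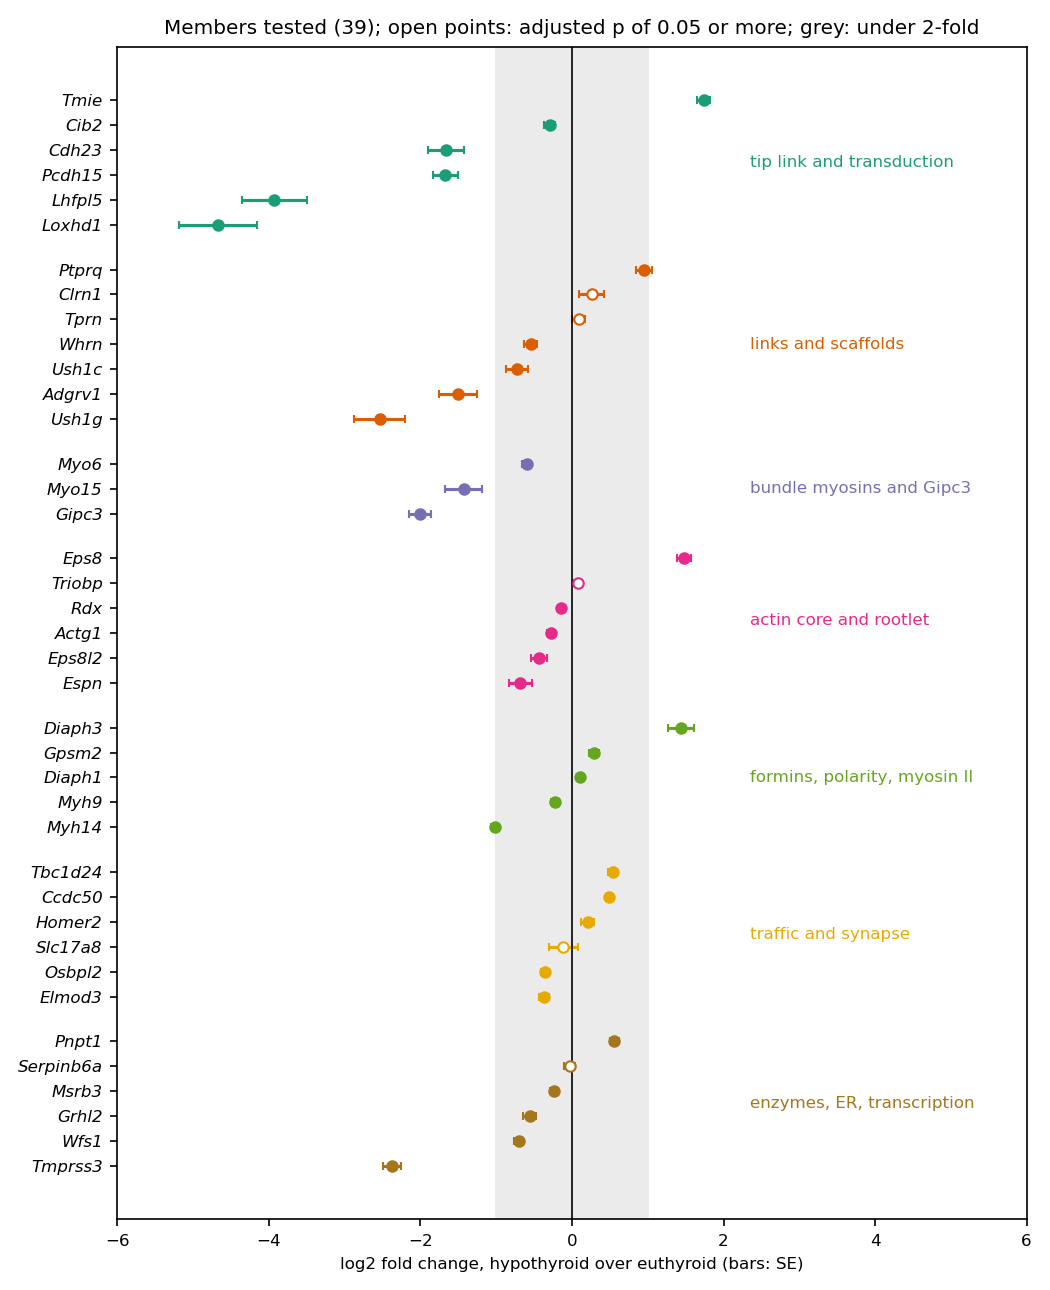
Log2 fold change (hypothyroid over euthyroid, x axis) of the 39 members tested, grouped by role; bars are the SE and open points had an adjusted p of 0.05 or more. The lowest 4 are Loxhd1 at -4.67, Lhfpl5 at -3.93, Ush1g at -2.54 and Tmprss3 at -2.38, and the highest 3 are Tmie at 1.74, Eps8 at 1.48 and Diaph3 at 1.44.

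Hair cells were looked for with 15 marker genes, which summed to between 32.4 and 42.1 CPM in hypothyroid libraries and between 47.1 and 107 CPM in euthyroid libraries. Without Myo7a, the only marker called higher, they summed to between 5.51 and 7.37 CPM in hypothyroid libraries and between 36.1 and 93.2 CPM in euthyroid libraries. Of the 9 markers tested, 7 were lower, Tmc1 did not pass and Myo7a was higher. Slc26a5 (prestin) and Ocm (oncomodulin), defining genes of outer hair cells, had 0 and 4 counts over the hypothyroid libraries, and 641 and 2714 over the euthyroid libraries. Strc (stereocilin) had 8 counts in hypothyroid and 409 in euthyroid libraries, and the hair cell transcription factors Pou4f3 and Gfi1 had 1 and 11 counts in hypothyroid and 86 and 110 in euthyroid libraries. Atoh1, which starts hair cell development, was near 0 in both groups, with 1 count in hypothyroid and 0 in euthyroid libraries. Otof (otoferlin), which hair cells need to release transmitter, was lower but present, averaging 3.54 ± 0.714 CPM in hypothyroid and 8.35 ± 3.72 CPM in euthyroid libraries. RNA of Slc26a5, Ocm, Strc, Pou4f3 and Gfi1 was therefore detected in the euthyroid libraries and was at or near 0 in the hypothyroid ones. In bulk tissue, fewer cells of a type and less RNA per cell cannot be told apart, and how much the hair cell markers' difference bears on each member was not tested. Markers of other cell types moved as well, some lists lower and others higher. Supporting cell markers summed to 342 to 369 CPM in hypothyroid and 689 to 781 CPM in euthyroid libraries (7 of 8 tested lower). Slc1a3 (140 CPM in hypothyroid, 291 CPM in euthyroid libraries), Cdkn1b (109 and 163 CPM) and S100a1 (67.8 and 148 CPM) made up most of it. Prox1 was called higher, and Sox2 was too low to test. Osteoblast markers summed to 47.2 to 89.6 CPM in hypothyroid and 1325 to 2161 CPM in euthyroid libraries (8 of 8 lower). Outer sulcus markers summed to 3350 to 4059 CPM in hypothyroid and 8043 to 8788 CPM in euthyroid libraries (6 of 9 lower). Most of that sum was Epyc (1735 CPM in hypothyroid, 3978 CPM in euthyroid libraries) and Sparcl1 (1408 and 3512 CPM). In the same list Dpp10 was higher (58.7 CPM in hypothyroid, 8.27 CPM in euthyroid libraries), as was Aqp5 (87.5 and 24.0 CPM), and Anxa1 did not pass. The part of these lists in the members' results was not tested.

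**Figure D2:**
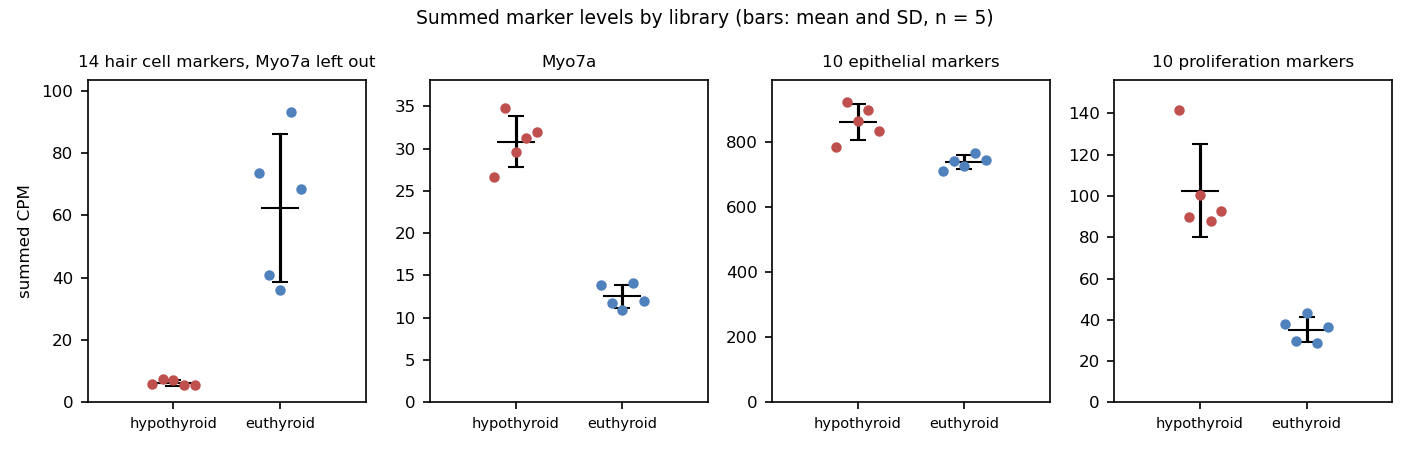
Summed CPM of marker lists in each library (points), with mean and SD over 5 libraries; hypothyroid libraries are left of euthyroid ones. The 14 hair cell markers without Myo7a lie between 5.51 and 7.37 in hypothyroid and between 36.1 and 93.2 in euthyroid libraries, whereas Myo7a lies higher in all hypothyroid libraries.

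Promoter sequences were taken from the RefSeq table of GRCm38.p6 (mouse), which held 45 start sites of 35 members. The 250 bases before each start were searched on both strands for AGGTCA, the hexamer that thyroid hormone receptors share with other nuclear receptors. It stood in 3 of the 45 windows, of Tprn, Osbpl2 and Adgrv1, which is 6.67%, against 14.02% of 32851 windows of all genes. The repeated form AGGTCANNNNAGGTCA, which contains the hexamer at both ends, was in 0 member windows and in 5 windows of all genes. The 2 windows with the hexamer and no annotated exon are shown with it in capitals, beginning 43 bases before the start of Tprn (chr2:25262348-25262597, + strand) and 210 bases before an inner start of Osbpl2 (chr2:180119056-180119305, + strand). Tprn did not pass the test and Osbpl2 was 1.28-fold lower in hypothyroid libraries. In Adgrv1, which was 2.83-fold lower, the hexamer began 237 bases before the start in the table, in a window that includes exon bases and is not shown.
Tprn: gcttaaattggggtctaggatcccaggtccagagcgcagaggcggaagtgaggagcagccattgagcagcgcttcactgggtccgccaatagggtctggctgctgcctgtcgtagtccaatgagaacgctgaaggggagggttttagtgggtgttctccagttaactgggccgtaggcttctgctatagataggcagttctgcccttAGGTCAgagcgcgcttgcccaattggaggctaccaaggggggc
Osbpl2: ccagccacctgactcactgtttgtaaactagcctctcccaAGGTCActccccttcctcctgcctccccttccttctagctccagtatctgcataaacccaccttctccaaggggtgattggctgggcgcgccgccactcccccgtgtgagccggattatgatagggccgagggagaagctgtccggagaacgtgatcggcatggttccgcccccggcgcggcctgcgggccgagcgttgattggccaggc

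The windows of Cdh23 (chr10:60696491-60696740, - strand), of an inner start of Pcdh15 (chr10:73821617-73821866, + strand) and of an inner start of Gipc3 (chr10:81343360-81343609, - strand) are shown since all 3 genes were over 3-fold lower in hypothyroid libraries. None of the 3 held the hexamer, which says only that these letters are not in these windows.
Cdh23: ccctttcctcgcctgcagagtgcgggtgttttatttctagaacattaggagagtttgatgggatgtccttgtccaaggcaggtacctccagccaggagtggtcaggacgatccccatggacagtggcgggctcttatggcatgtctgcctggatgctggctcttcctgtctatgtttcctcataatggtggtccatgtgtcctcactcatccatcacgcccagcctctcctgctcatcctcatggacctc
Pcdh15: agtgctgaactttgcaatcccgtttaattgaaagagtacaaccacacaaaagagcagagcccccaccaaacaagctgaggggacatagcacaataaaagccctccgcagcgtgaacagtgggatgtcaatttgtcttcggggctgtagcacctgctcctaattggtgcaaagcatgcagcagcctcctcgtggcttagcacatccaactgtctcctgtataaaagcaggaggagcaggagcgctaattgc
Gipc3: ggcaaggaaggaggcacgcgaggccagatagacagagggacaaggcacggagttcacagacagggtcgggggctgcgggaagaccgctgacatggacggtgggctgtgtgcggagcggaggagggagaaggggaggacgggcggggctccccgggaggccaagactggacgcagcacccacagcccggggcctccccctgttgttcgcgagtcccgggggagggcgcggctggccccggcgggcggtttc

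In the tip link and transduction group, 5 of the 6 members tested fell and Tmie rose. Cdh23 (chr10:60302748-60696513), the cadherin of the upper part of the tip link, had 1.26, 1.43, 0.723, 0.692 and 0.942 CPM in hypothyroid replicates 1 to 5, and 3.78, 2.75, 2.48, 4.39 and 2.61 CPM in euthyroid replicates 1 to 5. Every hypothyroid library lay below every euthyroid one, and euthyroid replicates 1 and 4 were highest. The log2 fold change was -1.66 ± 0.24 (SE; edgeR adjusted p = 1.41e-05). Its partner Pcdh15 (chr10:73096277-74649831), the lower part of the same link, had 1.59, 2.47, 1.93, 1.98 and 1.79 CPM in hypothyroid libraries, against 5.73, 4.90, 7.50, 7.49 and 5.60 CPM in euthyroid libraries. The groups did not overlap and the fall was of like size to that of Cdh23, at -1.67 ± 0.16 (SE; edgeR adjusted p = 2.27e-07).

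Lhfpl5 (chr17:28575369-28583593), a tetraspan protein that ties protocadherin 15 to the channel, was at 0.0935, 0.0951, 0.145, 0.0462 and 0 CPM in hypothyroid libraries and at 1.30, 0.916, 0.846, 1.92 and 1.22 CPM in euthyroid libraries. At most 3 reads lay behind each hypothyroid value, so the group was close to undetected. Its log2 fold change of -3.93 ± 0.43 corresponds to 15.2-fold lower (edgeR adjusted p = 8.6e-07). Loxhd1, a stereocilia protein that mature hair cells need for transduction in the mouse, had 0.187, 0.190, 0, 0 and 0.0942 CPM in hypothyroid libraries, against 3.67, 1.83, 1.35, 3.77 and 2.11 CPM in euthyroid libraries. This was the lowest fold change among the members, -4.67 ± 0.51 (SE; edgeR adjusted p = 1.79e-06), again with euthyroid replicates 1 and 4 highest. Tmc2, the channel protein of immature hair cells, was too low to test, with 9 counts over the hypothyroid and 2 over the euthyroid libraries, a ratio of 3.84 (95% interval of counting error alone, 0.796 to 36.6).

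Tmie (chr9:110865687-110880073), a small membrane protein of the channel complex, moved the other way. It had 34.2, 43.1, 37.5, 41.2 and 35.0 CPM in hypothyroid libraries and 10.2, 12.1, 13.0, 10.3 and 11.5 CPM in euthyroid libraries. The lowest hypothyroid library was above the highest euthyroid one, and the gene was 3.34-fold higher (log2 1.74 ± 0.09 SE; edgeR adjusted p = 1.25e-10). Of the exon bases of Tmie, 7.89% overlap exons of Als2cl on the opposite strand, and Als2cl was itself higher, at 165 CPM in hypothyroid and 83.5 CPM in euthyroid libraries. Whether the libraries kept the strand is not stated, so reads in that overlap cannot be told apart. Cib2, a calcium-binding protein that attaches to TMC proteins, had 19.4, 19.5, 20.5, 17.7 and 19.4 CPM in hypothyroid libraries and 23.8, 24.9, 20.3, 26.0 and 23.4 CPM in euthyroid libraries. Euthyroid replicate 3 lay within the hypothyroid range, and the fall was small, -0.30 ± 0.07 (SE; edgeR adjusted p = 0.00178). Sh2d7, whose exons overlap 15.8% of those of Cib2 from the other strand, was near 0 in all libraries. Per length, Tmie and Cib2 had the highest levels of the group, with Tmie at 40.1 and Cib2 at 37.5 TPM in hypothyroid libraries, against 10.4 TPM for Tmie and 39.4 TPM for Cib2 in euthyroid libraries.

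**Figure D3:**
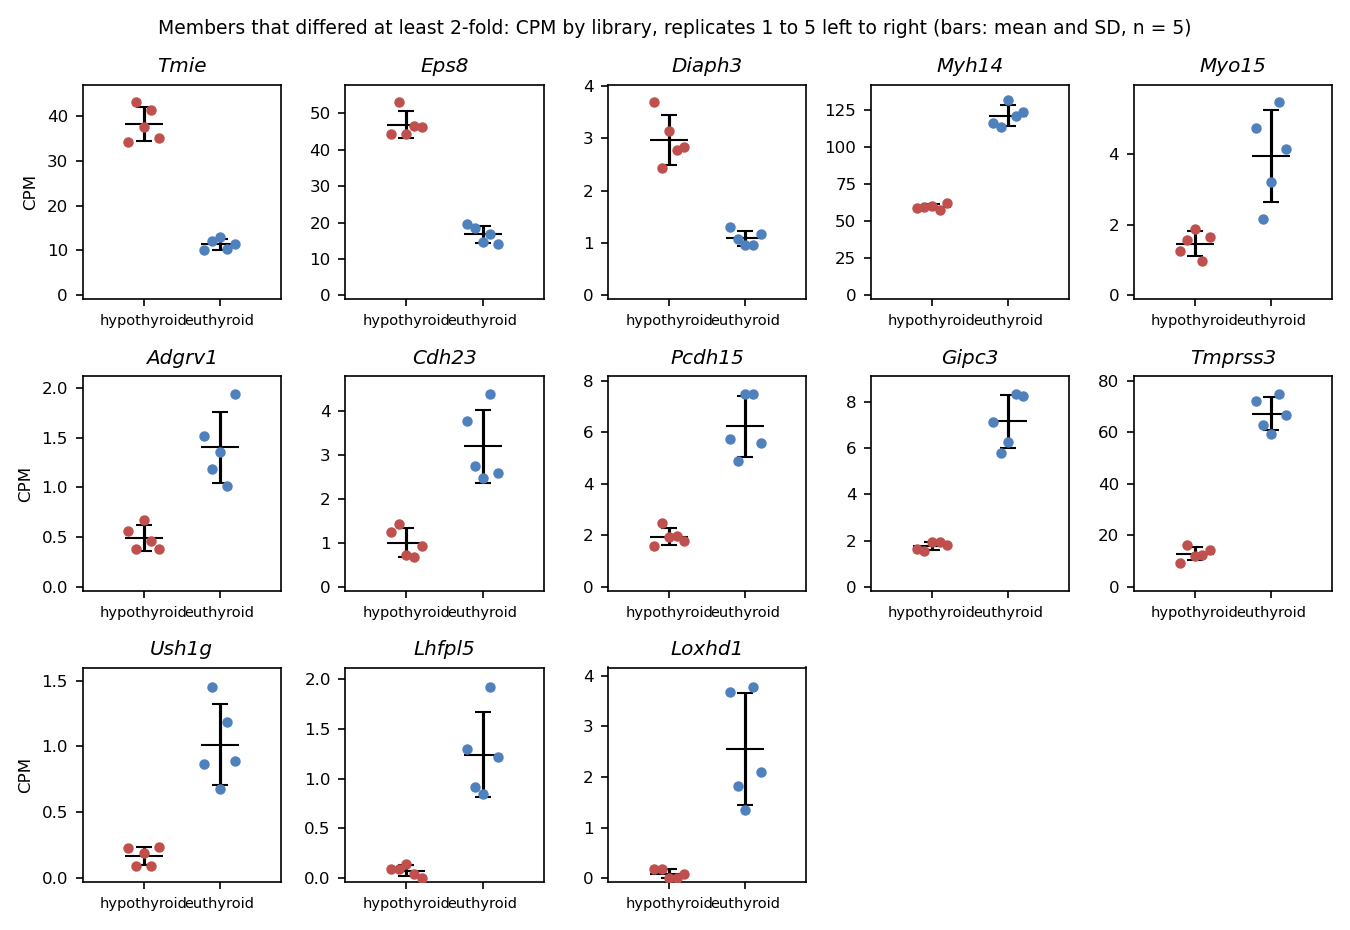
CPM in each library of the 13 members that differed at least 2-fold, hypothyroid replicates left of euthyroid ones, with mean and SD (n = 5 each). In every panel the groups do not overlap; Tmie, Eps8 and Diaph3 lie higher in hypothyroid libraries and the other 10 lie lower.

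Among the links and anchoring scaffolds, 4 of the 7 members tested fell, Ptprq rose, and Clrn1 and Tprn did not pass. The scaffolds of the upper tip link anchor both fell. Ush1g (chr11:115315192-115333736), known as SANS, had 0.234, 0.0951, 0.193, 0.0923 and 0.236 CPM in hypothyroid libraries and 0.864, 1.45, 0.677, 1.18 and 0.887 CPM in euthyroid libraries. The groups stood apart, and the log2 fold change was -2.54 ± 0.34 (SE; edgeR adjusted p = 6.96e-06). Ush1c, which encodes harmonin, had 8.75, 11.4, 9.31, 8.49 and 8.76 CPM in hypothyroid libraries, against 18.2, 13.3, 11.003, 19.7 and 14.9 CPM in euthyroid libraries. Hypothyroid replicate 2 lay just above euthyroid replicate 3, so the groups overlapped, while the test gave -0.72 ± 0.14 (SE; edgeR adjusted p = 0.000422).

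Adgrv1 (chr13:81095068-81633391), the very large receptor that forms the ankle links at the base of stereocilia, was at 0.561, 0.380, 0.675, 0.462 and 0.377 CPM in hypothyroid libraries and at 1.51, 1.19, 1.35, 1.01 and 1.94 CPM in euthyroid libraries. All hypothyroid libraries lay below all euthyroid ones, with a 2.83-fold lower level (log2 -1.50 ± 0.25 SE; edgeR adjusted p = 6.25e-05). Whrn, the scaffold whirlin of the ankle links and stereocilia tips, averaged 8.46 ± 0.561 CPM in hypothyroid and 12.4 ± 1.02 CPM in euthyroid libraries, and fell with no overlap. Clrn1, the membrane protein clarin 1, averaged 2.30 ± 0.401 CPM in hypothyroid and 1.92 ± 0.184 CPM in euthyroid libraries (edgeR adjusted p = 0.168). Without hypothyroid replicate 1 Clrn1 passed the test, at 0.36 and an adjusted p of 0.0455 by edgeR, and it was also called higher with library sizes alone, at 0.52 and an edgeR adjusted p of 0.00973.

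Ptprq, a receptor-like phosphatase of the shaft connectors, rose under every alternative that was run. It averaged 14.3 ± 1.64 CPM in hypothyroid libraries and 7.38 ± 0.841 CPM in euthyroid libraries, without overlap, at 1.94-fold (log2 0.95 ± 0.11 SE; edgeR adjusted p = 9.55e-07). Tprn, or taperin, which sits at the taper of stereocilia, had 25.5, 32.3, 28.5, 33.5 and 25.5 CPM in hypothyroid libraries, and 24.4, 27.7, 26.5, 27.5 and 30.6 CPM in euthyroid libraries. The groups overlapped and no change was called (log2 0.09 ± 0.09 SE; edgeR adjusted p = 0.365), whereas 6 of 20 alternatives, all of scaling or unit, called it higher (0.35 and edgeR adjusted p = 0.00191 with library sizes alone). Grxcr1, a glutaredoxin-like protein that sets stereocilia width in the mouse, had 0 counts over the hypothyroid and 23 over the euthyroid libraries, which is at least 8.98-fold lower against a floor of 3 counts over the group.

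All 3 tested members of the myosin group fell without overlap, and the fourth, Myo3a, was too low to test. Myo15 (chr11:60469339-60528369), the motor that carries whirlin and EPS8 to stereocilia tips, had 1.26, 1.57, 1.88, 0.969 and 1.65 CPM in hypothyroid libraries, against 4.75, 2.15, 3.22, 5.47 and 4.16 CPM in euthyroid libraries. Euthyroid replicates 1 and 4 were again highest, and replicate 2, the lowest, was still above every hypothyroid library (log2 -1.43 ± 0.24 SE; edgeR adjusted p = 9.35e-05). Gipc3 (chr10:81335262-81343620), an adaptor that binds myosin VI, was at 1.64, 1.57, 1.93, 1.94 and 1.79 CPM in hypothyroid libraries and at 7.13, 5.76, 6.26, 8.34 and 8.26 CPM in euthyroid libraries. The hypothyroid values were tightly grouped and 4.02-fold lower (log2 -2.01 ± 0.14 SE; edgeR adjusted p = 6.62e-09).

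Myo6, the motor that moves toward the base of stereocilia and is also found in many epithelia, was the most abundant of the group per length, at 77.3 ± 5.50 TPM in hypothyroid and 105 ± 5.23 TPM in euthyroid libraries. Its CPM values were 210, 246, 223, 208 and 238 CPM in hypothyroid libraries and 333, 316, 375, 357 and 322 CPM in euthyroid libraries. It fell 1.51-fold with the groups well apart (log2 -0.60 ± 0.06 SE; edgeR adjusted p = 3.85e-07), a smaller change than that of its adaptor Gipc3; the difference between the genes was not tested. Myo3a, which carries espin to the tips, had 1 count over the hypothyroid and 26 over the euthyroid libraries, 30.4-fold lower with a 95% interval of counting error alone of 5.00 to 1248.

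In the actin core and rootlet group Eps8 rose, 4 members fell and Triobp did not pass. Eps8 (chr6:137477245-137649397), which caps and elongates actin at the tips of the tallest stereocilia and also acts in microvilli, had 44.1, 53.2, 44.2, 46.4 and 46.1 CPM in hypothyroid libraries, against 19.6, 18.4, 14.8, 17.0 and 14.2 CPM in euthyroid libraries. It was 2.78-fold higher (log2 1.48 ± 0.09 SE; edgeR adjusted p = 8.77e-10), with the groups far apart. Its relative Eps8l2, which keeps older stereocilia from shrinking in the mouse, averaged 23.9 ± 3.96 CPM in hypothyroid and 32.3 ± 2.99 CPM in euthyroid libraries and fell (log2 -0.44 ± 0.10 SE; edgeR adjusted p = 0.00158). A noncoding gene on the other strand covers 32.2% of the exon bases of Eps8l2. Espn, or espin, the actin bundler, averaged 3.36 ± 0.329 CPM in hypothyroid and 5.39 ± 1.08 CPM in euthyroid libraries and fell by 0.68 on the log2 scale.

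By TPM, Actg1 and Rdx were the 2 most abundant members. In CPM with TMM factors both fell little. Actg1, gamma actin, had 1721, 1516, 1688, 1628 and 1675 CPM in hypothyroid libraries, and 2047, 1888, 1958, 1994 and 2122 CPM in euthyroid libraries. The groups did not overlap at this scaling, at -0.28 ± 0.05 (SE; edgeR adjusted p = 0.000139), but with library sizes alone Actg1 did not pass the test. Rdx, or radixin, which ties actin to the stereocilia membrane, had 225, 230, 237, 209 and 230 CPM in hypothyroid libraries, against 263, 247, 247, 242 and 254 CPM in euthyroid libraries. The groups stood apart by a small margin (log2 -0.15 ± 0.04 SE; edgeR adjusted p = 0.00779), and the direction flipped to 0.12 with library sizes alone. Triobp, which bundles actin in the rootlets, averaged 78.3 ± 3.14 CPM in hypothyroid and 74.1 ± 3.49 CPM in euthyroid libraries (edgeR adjusted p = 0.146), and was called higher with library sizes alone, at 0.34 and an edgeR adjusted p of 1.93e-05.

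Of the formins, polarity and nonmuscle myosin genes, 3 rose and 2 fell. Diaph3 (chr14:86655357-87141247), a formin that nucleates actin and whose excess causes auditory neuropathy in humans, had 3.69, 2.42, 3.13, 2.77 and 2.83 CPM in hypothyroid libraries and 1.30, 1.08, 0.959, 0.958 and 1.16 CPM in euthyroid libraries. The groups stood apart at 2.71-fold (log2 1.44 ± 0.17 SE; edgeR adjusted p = 2.25e-06). Its relative Diaph1 averaged 73.1 ± 3.29 CPM in hypothyroid and 68.0 ± 1.45 CPM in euthyroid libraries, called at edgeR adjusted p = 0.0431 and not called when any of 8 libraries was left out, those being hypothyroid replicates 2, 4 and 5 and all 5 euthyroid ones, with edgeR adjusted p of 0.0698 to 0.129. Gpsm2, which orients the mitotic spindle and marks the bare zone beside the bundle, averaged 30.1 ± 1.99 CPM in hypothyroid and 24.6 ± 1.17 CPM in euthyroid libraries and rose without overlap. Exons of Clcc1, which also rose, overlap 5.19% of its exon bases. Markers of dividing cells moved the same way, and all 10 were higher. Their sum was 87.9 to 142 CPM in hypothyroid and 28.9 to 43.2 CPM in euthyroid libraries. Hypothyroid replicate 1 was highest for the sum and for Diaph3. Among euthyroid libraries the sum was highest in replicate 3, where Diaph3 had 0.959 CPM, below its 1.30 CPM in replicate 1. Gpsm2 was highest in hypothyroid replicates 2 and 3, at 32.3 and 32.1 CPM. The part of the dividing cell markers in the result for Diaph3 and Gpsm2 was not tested.

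Myh14 (chr7:44605803-44670872), the nonmuscle myosin IIC heavy chain of epithelial junctions, had 58.9, 59.5, 60.7, 57.8 and 62.3 CPM in hypothyroid libraries, against 117, 114, 132, 121 and 124 CPM in euthyroid libraries. The groups stood well apart, and it was 2.03-fold lower (log2 -1.02 ± 0.05 SE; edgeR adjusted p = 5.8e-11). Myh9, the IIA heavy chain of most cells, had 275, 272, 268, 261 and 278 CPM in hypothyroid libraries and 301, 277, 358, 332 and 313 CPM in euthyroid libraries. Hypothyroid replicate 5 lay just above euthyroid replicate 2, and the fall of 0.22 ± 0.06 on the log2 scale (SE; edgeR adjusted p = 0.00311) flipped to 0.043 with library sizes alone.

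Of the 6 genes of membrane traffic, synapse and signalling, 3 were higher and 2 lower, each by less than 2-fold, and Slc17a8 did not pass. Ccdc50, a ubiquitin-binding protein of growth factor signalling, had 177, 186, 184, 165 and 180 CPM in hypothyroid libraries and 130, 130, 129, 123 and 125 CPM in euthyroid libraries. It was 1.40-fold higher without overlap (log2 0.49 ± 0.04 SE; edgeR adjusted p = 7.85e-08). Osbpl2, an oxysterol-binding protein relative, had 55.8, 58.0, 51.7, 61.4 and 57.7 CPM in hypothyroid libraries, against 74.5, 80.2, 68.3, 72.7 and 68.8 CPM in euthyroid libraries. The groups did not overlap (log2 -0.36 ± 0.06 SE; edgeR adjusted p = 4.58e-05).

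Tbc1d24, a regulator of vesicle traffic, rose with averages of 55.1 ± 4.80 CPM in hypothyroid and 37.9 ± 1.10 CPM in euthyroid libraries. Elmod3, a regulator of Arf-family GTPases, fell, with averages of 22.3 ± 1.04 CPM in hypothyroid and 28.9 ± 2.26 CPM in euthyroid libraries. Homer2, a scaffold of calcium signalling, averaged 19.7 ± 1.50 CPM in hypothyroid and 17.1 ± 1.90 CPM in euthyroid libraries. Its edgeR adjusted p was 0.0386, and it was not called when any of 7 libraries was left out, those being hypothyroid replicates 1, 2 and 5 and euthyroid replicates 2 to 5, with edgeR adjusted p of 0.0537 to 0.128. Slc17a8, the vesicular glutamate transporter that loads synaptic vesicles in inner hair cells, averaged 4.31 ± 0.777 CPM in hypothyroid and 4.66 ± 1.37 CPM in euthyroid libraries (edgeR adjusted p = 0.607). Euthyroid replicates 1 and 4 were its highest libraries, at 6.27 and 5.97 CPM.

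Among the enzymes and the genes of the endoplasmic reticulum, mitochondria and transcription, 4 fell, Pnpt1 rose and Serpinb6a did not pass. Tmprss3 (chr17:31179263-31200504), a membrane serine protease needed for hair cell survival in the mouse, had 9.45, 16.4, 11.9, 12.6 and 14.4 CPM in hypothyroid libraries, against 72.2, 62.9, 59.3, 74.8 and 66.9 CPM in euthyroid libraries. The groups were far apart, and the 5.20-fold fall was the largest of any member with a mean above 10 CPM in either group (log2 -2.38 ± 0.12 SE; edgeR adjusted p = 1.38e-09). Pnpt1 (chr11:29130129-29161827), an exoribonuclease of mitochondria, had 45.6, 42.1, 44.0, 45.2 and 47.6 CPM in hypothyroid libraries and 27.1, 31.6, 31.2, 31.0 and 31.4 CPM in euthyroid libraries. It rose 1.47-fold without overlap (log2 0.56 ± 0.06 SE; edgeR adjusted p = 3.53e-07).

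Serpinb6a, a protease inhibitor of the cytosol, had 65.2, 83.3, 79.8, 76.3 and 68.0 CPM in hypothyroid libraries and 76.7, 70.8, 77.5, 83.1 and 72.5 CPM in euthyroid libraries. The groups overlapped (log2 -0.03 ± 0.07 SE; edgeR adjusted p = 0.695), while with library sizes alone it was called higher, at 0.23 and an edgeR adjusted p of 0.00345. Nqo2, on the other strand, covers 29.3% of its exon bases, and was at 27.8 CPM in hypothyroid and 30.3 CPM in euthyroid libraries. Wfs1, wolframin of the endoplasmic reticulum, fell without overlap, averaging 25.1 ± 1.81 CPM in hypothyroid and 41.0 ± 1.60 CPM in euthyroid libraries. Msrb3, a methionine sulfoxide reductase, fell to 40.0 ± 1.70 CPM in hypothyroid libraries, against 47.3 ± 3.14 CPM in euthyroid libraries, a direction that flipped to 0.024 on the log2 scale with library sizes alone. Grhl2, a transcription factor of epithelial identity, averaged 16.3 ± 1.998 CPM in hypothyroid and 24.0 ± 2.01 CPM in euthyroid libraries and fell without overlap. Of 10 epithelial markers, 6 were higher, Esrp1 and Rab25 were lower, and Cdh1 and Esrp2 did not pass. They summed to 782 to 922 CPM in hypothyroid and 709 to 766 CPM in euthyroid libraries, of which Cdh1 averaged 446 CPM in hypothyroid and 443 CPM in euthyroid libraries. Their part in the result for Grhl2 was not tested.

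**Figure D4:**
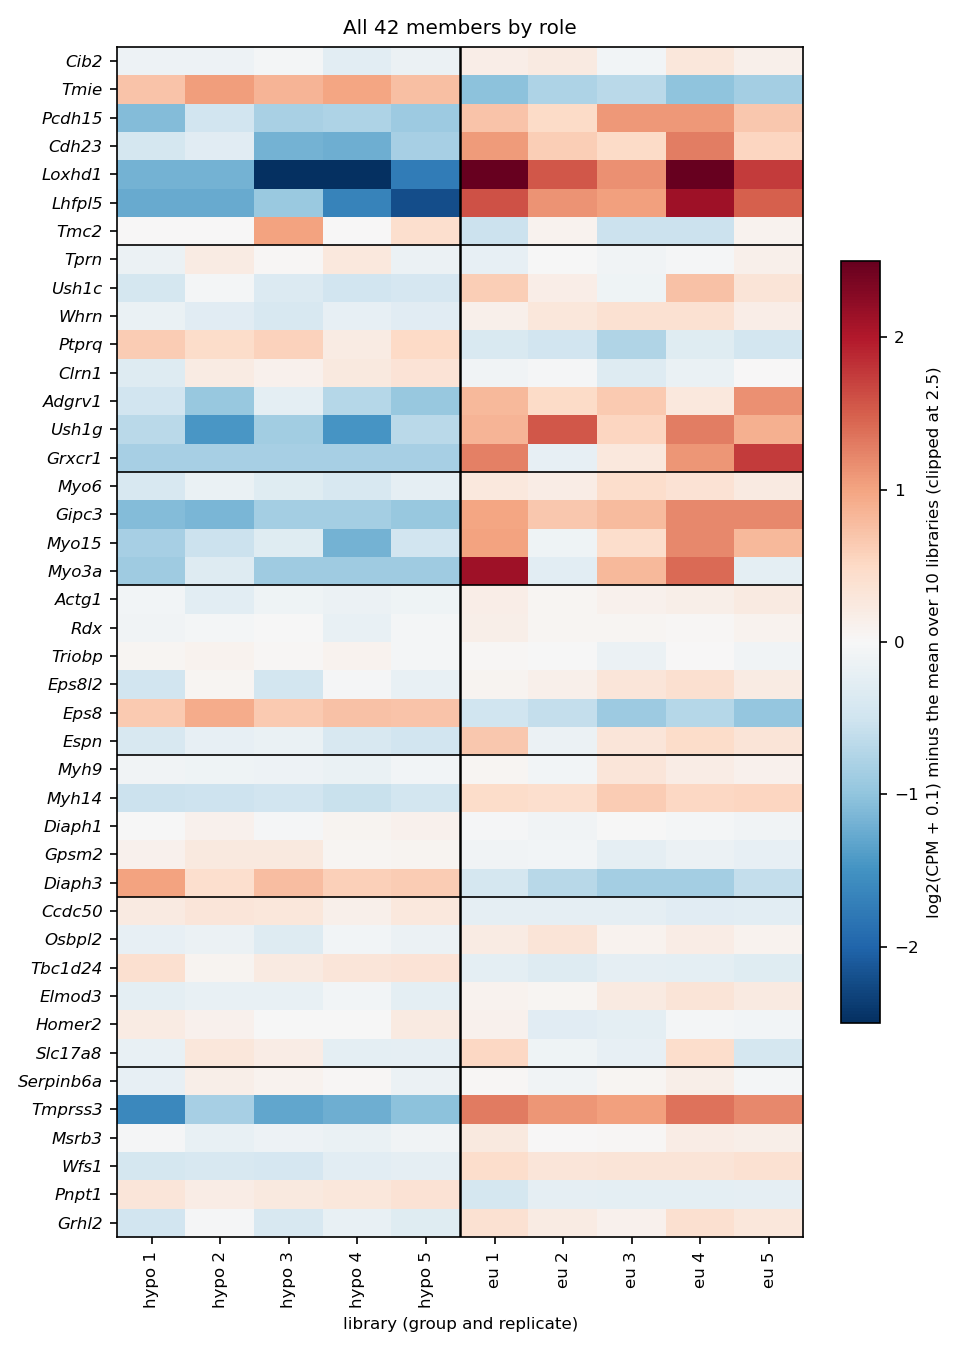
Each row is a member, ordered by role, and each column a library, hypothyroid (hypo) left of euthyroid (eu); colour is log2(CPM + 0.1) minus the row's mean over the 10 libraries, clipped at 2.5. Rows such as Loxhd1, Lhfpl5 and Tmprss3 are blue in hypothyroid and red in euthyroid libraries, Tmie and Eps8 show the opposite, and Tprn, Triobp and Serpinb6a stay near white.

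The libraries of a group did not differ in the same order for all members. Euthyroid replicates 1 and 4 were the 2 highest euthyroid libraries for 5 of the 10 members that were at least 2-fold lower (Cdh23, Lhfpl5, Loxhd1, Myo15 and Tmprss3). In the other 5 of those members, Pcdh15, Ush1g, Adgrv1, Gipc3 and Myh14, another euthyroid library was among the top pair. Replicates 1 and 4 were also the top pair for 6 of the 9 hair cell markers tested, among them Myo7a, which was higher in hypothyroid libraries. The pair was noticed in these data, and its share over all genes was not counted. Myo7a, the motor of the upper tip link anchor, had 26.6, 34.8, 29.6, 31.2 and 31.9 CPM in hypothyroid libraries, against 13.8, 11.8, 10.9, 14.1 and 12.03 CPM in euthyroid libraries, and rose by 1.30 ± 0.09 on the log2 scale (SE; edgeR adjusted p = 3.74e-09). Its partners in that anchor, Ush1c and Ush1g, fell in the same libraries.

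Levels were compared between genes only by the authors' TPM values, which divide by transcript length. Actg1 was highest, at 2332 ± 129 TPM in hypothyroid and 2424 ± 99.7 TPM in euthyroid libraries, followed by Rdx at 144 ± 5.98 TPM in hypothyroid and 136 ± 6.02 TPM in euthyroid libraries. Serpinb6a came next, at 140 ± 11.8 TPM in hypothyroid and 122 ± 6.69 TPM in euthyroid libraries. Rdx and Serpinb6a did not differ in level beyond their spread in hypothyroid libraries. Tmprss3 ranked 22nd of the 42 in hypothyroid libraries, at 12.3 ± 2.54 TPM, and 8th in euthyroid libraries, at 54.4 ± 5.14 TPM. Tmie ranked 10th at 40.1 ± 4.52 TPM in hypothyroid and 23rd at 10.4 ± 1.27 TPM in euthyroid libraries, and Eps8 ranked 13th at 31.4 ± 2.43 TPM in hypothyroid and 24th at 9.64 ± 1.51 TPM in euthyroid libraries. At the low end, Loxhd1 had 0.036 ± 0.0351 TPM in hypothyroid and 0.746 ± 0.322 TPM in euthyroid libraries.

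The ratio of the authors' estimated count to their TPM, scaled per library, gives the mean transcript length their quantification assigned to a gene, and so shows where the estimated mix of transcripts differed. It was examined after the data were seen and is given without a test. Among 33 members with at least 0.4 TPM in every library, 5 had groups that did not overlap. That is 15.2%, against 6.65% of 13962 genes. With a ratio of at least 1.2 either way as well there were 2, which is 6.06%, against 0.294% of all genes. For Ptprq the implied length was 7195, 7494, 6809, 7043 and 7109 bases in hypothyroid libraries, against 9281, 8603, 9929, 9931 and 9495 bases in euthyroid libraries. All exons of Ptprq in GENCODE come to 7499 bases, so the euthyroid lengths exceed that annotation. The shorter implied length in hypothyroid libraries goes with a wider gap on the TPM scale, where Ptprq averaged 5.29 ± 0.628 TPM in hypothyroid and 1.77 ± 0.254 TPM in euthyroid libraries. For Espn it was 2272, 2644, 2515, 2056 and 2119 bases in hypothyroid and 1773, 1946, 1974, 1842 and 1835 bases in euthyroid libraries. Grhl2 and Myo6 had smaller shifts, averaging 4627 ± 24.6 and 7668 ± 151 bases in hypothyroid libraries, and 4095 ± 93.3 and 7269 ± 123 bases in euthyroid libraries. Reads of 50 bases seldom tell transcripts of a gene apart, so these lengths are estimates of the quantification and not of measured molecules.

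**Figure D5:**
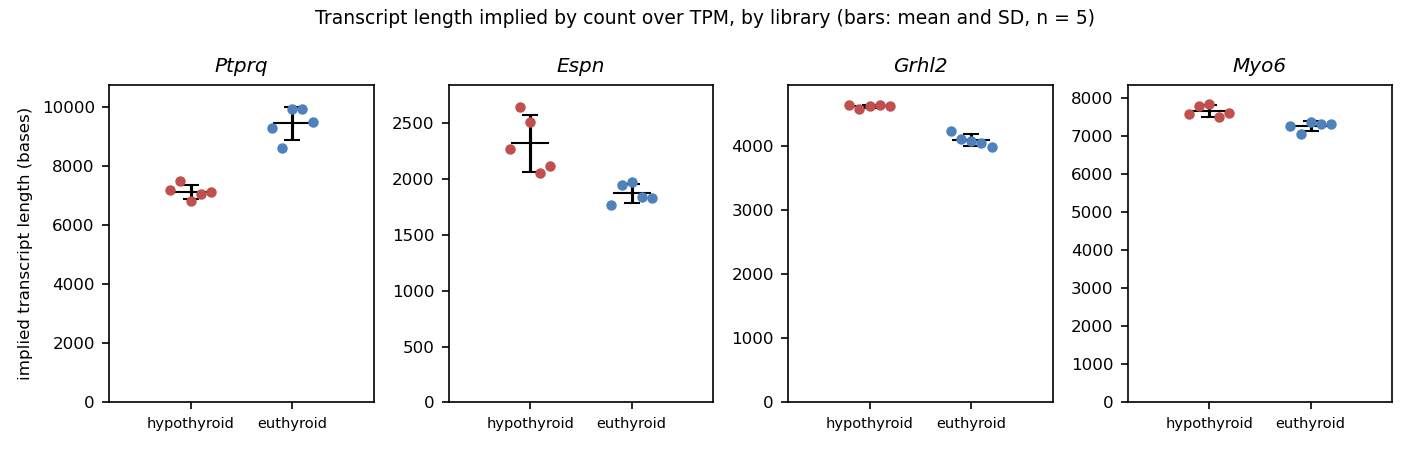
Transcript length implied by the authors' counts and TPM values (bases, y axis) for Ptprq, Espn, Grhl2 and Myo6 in each library, with mean and SD (n = 5 each). Ptprq averaged 7130 bases in hypothyroid and 9448 bases in euthyroid libraries, whereas the other 3 were longer in hypothyroid libraries.

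Espn has 3 start sites in the RefSeq table, whose upstream windows are shown because the implied length of this gene differed between the groups. They lie on the - strand of GRCm38.p6 at chr4:152152390-152152639 (Espn_a), chr4:152136326-152136575 (Espn_b) and chr4:152128926-152129175 (Espn_c), none holds the hexamer, and which start was in use was not measured.
Espn_a: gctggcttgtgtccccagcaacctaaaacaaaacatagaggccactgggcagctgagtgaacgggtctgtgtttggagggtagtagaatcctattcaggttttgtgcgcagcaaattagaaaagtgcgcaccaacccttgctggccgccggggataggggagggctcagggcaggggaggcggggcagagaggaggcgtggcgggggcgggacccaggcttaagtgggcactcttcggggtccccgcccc
Espn_b: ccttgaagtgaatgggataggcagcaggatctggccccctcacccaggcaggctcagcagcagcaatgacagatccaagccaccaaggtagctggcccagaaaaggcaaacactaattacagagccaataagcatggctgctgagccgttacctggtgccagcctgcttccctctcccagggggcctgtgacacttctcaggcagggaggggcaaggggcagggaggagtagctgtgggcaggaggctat
Espn_c: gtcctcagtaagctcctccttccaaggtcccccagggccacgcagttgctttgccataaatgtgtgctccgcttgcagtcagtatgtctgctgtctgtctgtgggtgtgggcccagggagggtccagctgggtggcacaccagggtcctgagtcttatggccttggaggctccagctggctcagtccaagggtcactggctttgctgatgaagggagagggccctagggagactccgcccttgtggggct

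Other genes of the same kinds that are no members were counted in the same fit. Of 25 further hair bundle genes, 21 were tested: 3 were higher, 8 lower and 10 did not pass, with a median log2 fold change of -0.23. That is 14.3% higher and 38.1% lower, against 37.7% and 34.1% of all genes tested. With 52.4% called against 71.8% of all genes, this list was called less often than the background in this fit. That order did not hold on TPM values with no filter. Atp2b2, the calcium pump of the bundle, fell to 2.66 ± 0.744 CPM in hypothyroid libraries, against 21.3 ± 3.01 CPM in euthyroid libraries (log2 -3.00 ± 0.16 SE; edgeR adjusted p = 5.22e-10). Pls3, an actin bundler of many cells, fell by 0.54 on the log2 scale, while Myo7a, given above, was the other of the 3 with the smallest adjusted p. Of 49 further deafness genes in the table, 47 were tested, of which 11 were higher, 24 lower and 12 did not pass, with a median of -0.28. That is 23.4% higher and 51.1% lower, against the same shares of all genes. Col11a1, a fibrillar collagen, had the smallest adjusted p, at 1033 ± 124 CPM in hypothyroid and 3998 ± 313 CPM in euthyroid libraries (log2 -1.95 ± 0.08 SE; edgeR adjusted p = 3.14e-11). Col11a2 fell by 1.19 and P2rx2, an ATP-gated channel, by 2.02 on the log2 scale. With library sizes alone the further hair bundle genes were 8 higher and 6 lower, and the further deafness genes 18 higher and 23 lower. Under that scaling 58.2% of all genes were higher and 19.7% lower.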

How the data were processed

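Polyadenylated RNA was read as single 50-base reads on a BGI instrument, per the labels' protocols. The submitters' processing notes name RSEM 1.2.12, Bowtie2 2.2.5, HISAT2 2.0.4 and build GRCm38.p6. The authors deposited expected counts per gene, which RSEM estimates and which need not be whole, and TPM and FPKM values, which divide by transcript length and library total. Of the deposited table, 18 columns of scaled counts and group means were not used.

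Expected counts were rounded to whole numbers, genes were kept by filterByExpr (minimum count 10), and groups were compared with edgeR 4.0.16 (TMM, robust quasi-likelihood test, two-sided, group as the only term, R 4.3.3). Approximate SE is the log2 fold change over the square root of F. Alternatives used library sizes, upper quartile factors, DESeq2 1.42.0, other filters, a replicate block, each library left out, and limma 3.58.1 on log2(TPM + 0.1), log2(TPM + 1) and log2(FPKM + 0.1) for genes with a mean of at least 1. Python 3.11.15 and matplotlib 3.10.9 drew the figures. The method was tested on simulated data with few changed genes, balanced in direction. That simulation does not test scaling where most genes differ.

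Promoters came from RefSeq (GRCm38.p6) and exon overlaps from GENCODE of the same assembly. A chi-square comparison of the 20 within-group pairs of libraries gave 5.41 to 15.8 per gene on average, so no library was counted as a duplicate. The labels do not tie libraries to animals or litters, so p-values measure only the spread among these libraries. Intervals and floors of counts cover counting error only.

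Members and lists were chosen with earlier results of these data known. All members are named. Values in every library are given for members changed at least 2-fold with a mean of at least 1 CPM in the higher group and for the 2 highest by TPM in each role. From each other list the 3 genes with the smallest adjusted p are named, with defining hair cell genes. The inner ear gene Otor, the epithelial markers Esrp1, Esrp2, Rab25 and Cdh1, and the genes whose exons overlap members were added after their values were seen. So were the outer sulcus markers Epyc, Sparcl1, Dpp10, Aqp5 and Anxa1 and the cartilage marker Col2a1. The same holds for the supporting cell markers Slc1a3, Cdkn1b, S100a1, Prox1 and Sox2.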

Additional observations from a re-analysis of the deposited data

Results flagged for a closer look

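For each of the 39 members tested, the highest and lowest library of each group were compared with the other 4 by Dixon's test, which made 78 groups, and chance alone sets off about 1 in 20. In 3 groups a library stood apart. Hypothyroid replicate 2 was high for Ush1c, at 11.4 CPM with the next library at 9.31 CPM. The same library was high for Eps8, at 53.2 CPM with the next at 46.4 CPM. Euthyroid replicate 1 was low for Pnpt1, at 27.1 CPM with the next at 31.0 CPM. Without hypothyroid replicate 2 or euthyroid replicate 1, each of these 3 genes kept its direction and its call.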

How the results depend on the processing

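Over 20 alternatives, 24 of the 34 members called (8 higher, 16 lower), among them all 13 that differed at least 2-fold, kept direction and call wherever they were tested. Homer2 and Diaph1 among the higher members, and Rdx, Actg1, Cib2, Elmod3, Msrb3, Eps8l2, Osbpl2 and Myh9 among the lower, did not. The count of lower members, 24, became 13 with limma on log2(TPM + 0.1), 13 on log2(TPM + 1) and 9 on log2(FPKM + 0.1), which tested 35, 35 and 30 members and called 22.0%, 22.0% and 20.5% of all genes lower, against 34.1% with TMM. Tprn and Triobp gained a call as higher in 6 alternatives each, and Clrn1 in 5. Further hair bundle genes changed were 11 of 21 tested with TMM, where 71.8% of all genes were called. On TPM values with no filter they were 17 of 25, where 64.0% of all genes were called. The authors' TPM and FPKM and library sizes alone carry no correction for composition. Directions reversed there for Rdx (0.12 with library sizes, 0.077 on all 3 TPM scales, 0.12 on FPKM), Msrb3 (0.024 with library sizes, 0.039 on FPKM), Myh9 (0.043 with library sizes, 0.0071 on all 3 TPM scales, 0.046 on FPKM) and Serpinb6a (0.23 with library sizes, 0.19 on all 3 TPM scales, 0.23 on FPKM). Of all genes changed, 52.5% were higher with TMM, 74.7% with library sizes alone and 62.5% with upper quartile factors. On log2(TPM + 1), which understates low genes, Cdh23 was at -0.57, Pcdh15 at -0.67 and Lhfpl5 at -1.47. Leaving out each library gave 8 to 10 higher and 24 lower members. Same-numbered libraries deviated together with correlations of -0.08 to 0.09, and only replicates 1 and 5 had their own number as best partner. The labels name no pairing, and so few libraries cannot exclude one. With the replicate block 10392 genes were called, against 10667 without, and 9 members were higher and 24 lower, Diaph1 being lost (edgeR adjusted p = 0.0942). Members such as Loxhd1, Lhfpl5 and Ush1g had 0 to 5 reads in each hypothyroid library, so their fold changes are imprecise.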
